A study of Homo sapiens with 12 samples.

Results

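The genes described here are the 4 inhibitors of DNA binding (ID1, ID2, ID3 and ID4) and 4 SMAD genes of the bone morphogenetic protein (BMP) pathway (SMAD1, SMAD5, SMAD6 and SMAD7), 8 of the 20045 genes with a symbol on the array. They were chosen by symbol, and the set was selected on the change of ID1 between 6 and 12 h, so the values of ID1 are given as a description with no test. All 14 probes of these genes, of 47319 on the array, are reported, and the brightest probe over all arrays stands for each gene.

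BMPs bind pairs of receptor kinases that phosphorylate SMAD1, SMAD5 and SMAD9. These join SMAD4, enter the nucleus and bind DNA, and the ID genes are among their best known direct targets. ID proteins carry a helix-loop-helix but no DNA-binding region, so they pair with basic helix-loop-helix (bHLH) factors such as TCF3 and keep them off E-boxes. SMAD6 and SMAD7 are inhibitory SMADs that act as feedback brakes on the receptors. BMPs can stop growth or cause death of myeloma cells, and fibroblast growth factor (FGF) signalling can modify SMAD1 through its linker region.

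RNA came from KMS-11, an established line of malignant human plasma cells grown from multiple myeloma, and was read on Illumina arrays. All cells were kept in 1% FBS for 24 h and then treated with NSC12 at 6 µM or with its vehicle DMSO. NSC12 is an FGF trap, a small molecule meant to keep FGFs from their receptors. Treatment lasted 6 h or 12 h, which gave 4 groups of 3 arrays (DMSO 6 h, NSC12 6 h, DMSO 12 h and NSC12 12 h), and the comparison asks what NSC12 changed at each time. Only 1 cell line and 1 dose were used, and the vehicle groups shared the low serum. The labels do not say whether replicates were separate cultures, so the spread behind each p-value is that between these samples and may be technical.

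The dimmest array (DMSO 6 h replicate 3) had a mean intensity of 347 and the brightest 634, and no arrays held identical values. Levels below are log2 intensities after quantile normalization. Background was taken as 6.96, below which 95% of 383 olfactory receptor genes had their mean level, and 62.5% of genes lay above it in at least 1 group. Of 10 plasma cell markers, 8 lay above background, with XBP1 at 13.09, against 2 of 9 measured T and NK cell markers, 4 of 10 myeloid markers and 3 of 10 stromal and endothelial markers. HSPA6, a heat shock protein, separated the treatments at both times, with 8.24 ± 0.06 (SD, n = 3) and 13.93 ± 0.03 after 6 h of DMSO and NSC12, and 7.35 ± 0.0049 and 13.92 ± 0.07 after 12 h. In bulk RNA, fewer cells with a transcript and less of it per cell cannot be told apart.

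The promoters of ID1 and ID3 are shown because these are the members that were higher in NSC12 at 12 h. They are 300 bases each and span the gene's start, from RefSeq (GRCh38.p14), at chr20:31605039-31605338 on the plus strand for ID1 and chr1:23559452-23559751 on the minus strand for ID3. Capitals mark the 1 match found to the 6 motifs searched below.
ID1: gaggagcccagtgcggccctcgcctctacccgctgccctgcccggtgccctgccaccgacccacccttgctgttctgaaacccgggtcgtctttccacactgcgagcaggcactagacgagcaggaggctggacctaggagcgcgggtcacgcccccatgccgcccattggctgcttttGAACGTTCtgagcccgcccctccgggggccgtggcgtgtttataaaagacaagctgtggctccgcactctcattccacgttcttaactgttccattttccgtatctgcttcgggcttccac
ID3: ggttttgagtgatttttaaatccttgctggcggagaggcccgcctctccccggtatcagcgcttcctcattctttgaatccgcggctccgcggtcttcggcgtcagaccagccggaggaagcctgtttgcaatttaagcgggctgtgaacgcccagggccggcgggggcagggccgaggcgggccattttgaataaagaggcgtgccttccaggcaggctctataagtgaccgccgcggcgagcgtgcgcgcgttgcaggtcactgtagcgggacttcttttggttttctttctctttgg
Windows were searched on both strands for GGCGCC (a GC-rich element bound by SMAD1 and SMAD5), GTCTAGAC (the palindromic SMAD binding element), CANNTG (the E-box of bHLH factors), GCGTGGGCG (the EGR site), TGACGTCA (the CRE of CREB and ATF factors) and GAANNTTC (a core of heat shock elements). The ID1 window held GAACGTTC, a match to the heat shock core, with its first base at -71 from the start (chr20:31605218-31605225). That core is held by 6.77% of all 35116 promoter windows and by 3 of the 14 windows of the 8 genes. The ID3 window held no match to that core, and neither window held any of the other 5 motifs, which occur in 19.2% (GGCGCC), 0.202% (GTCTAGAC), 68.7% (CANNTG), 0.795% (GCGTGGGCG) and 1.85% (TGACGTCA) of all windows. Among the 14 windows, 10 held an E-box, 3 held GGCGCC and 1, that of SMAD6, held GTCTAGAC. These are matches of letters and not sites shown to be bound.

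ID1, a classic immediate target gene of BMP signalling, was lower in NSC12 than in DMSO at 6 h and higher at 12 h. Its brightest probe (ILMN_1664861) read 8.78, 8.85 and 8.92 on the DMSO 6 h arrays and 8.47, 8.63 and 8.45 on the NSC12 6 h arrays. At 12 h it read 8.89, 8.83 and 8.57 in DMSO and 9.94, 10.03 and 10.13 in NSC12. The treated arrays thus lay below all controls at 6 h and above all controls at 12 h, with no overlap at either time. The group means were 8.85 ± 0.07 (SD, n = 3), 8.52 ± 0.10, 8.76 ± 0.17 and 10.03 ± 0.09 in the order DMSO 6 h, NSC12 6 h, DMSO 12 h and NSC12 12 h. In order of level, NSC12 6 h was lowest and NSC12 12 h highest, and the DMSO groups lay between them, with arrays that overlapped each other.

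The change of ID1 (NSC12 minus DMSO) was -0.34 (log2, SE 0.09) at 6 h and 1.27 (SE 0.09), or 2.41-fold higher, at 12 h. The difference between the times was 1.61 (SE 0.13), rank 3 from the highest of 20045 genes, while the change at 12 h alone ranked 86. Within NSC12 the level was 2.86-fold higher at 12 h than at 6 h (rank 5), and within DMSO the change over time was -0.09 (SE 0.09). ID1 was chosen on its gain between 6 and 12 h, so high ranks were favoured by that choice and are description only. In the deposited intensities before normalization, the NSC12 12 h arrays read 1086, 1050 and 1327 and the DMSO 12 h arrays 451, 561 and 431. The dimmer probe of ID1 (ILMN_1665832) had group means of 7.03, 7.18, 6.93 and 7.80, in the same order of groups. It was higher by 0.87 at 12 h, as on the brighter probe, but at 6 h its change was 0.15, so the lower level at 6 h was seen on 1 probe of 2.

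**Figure D1:**
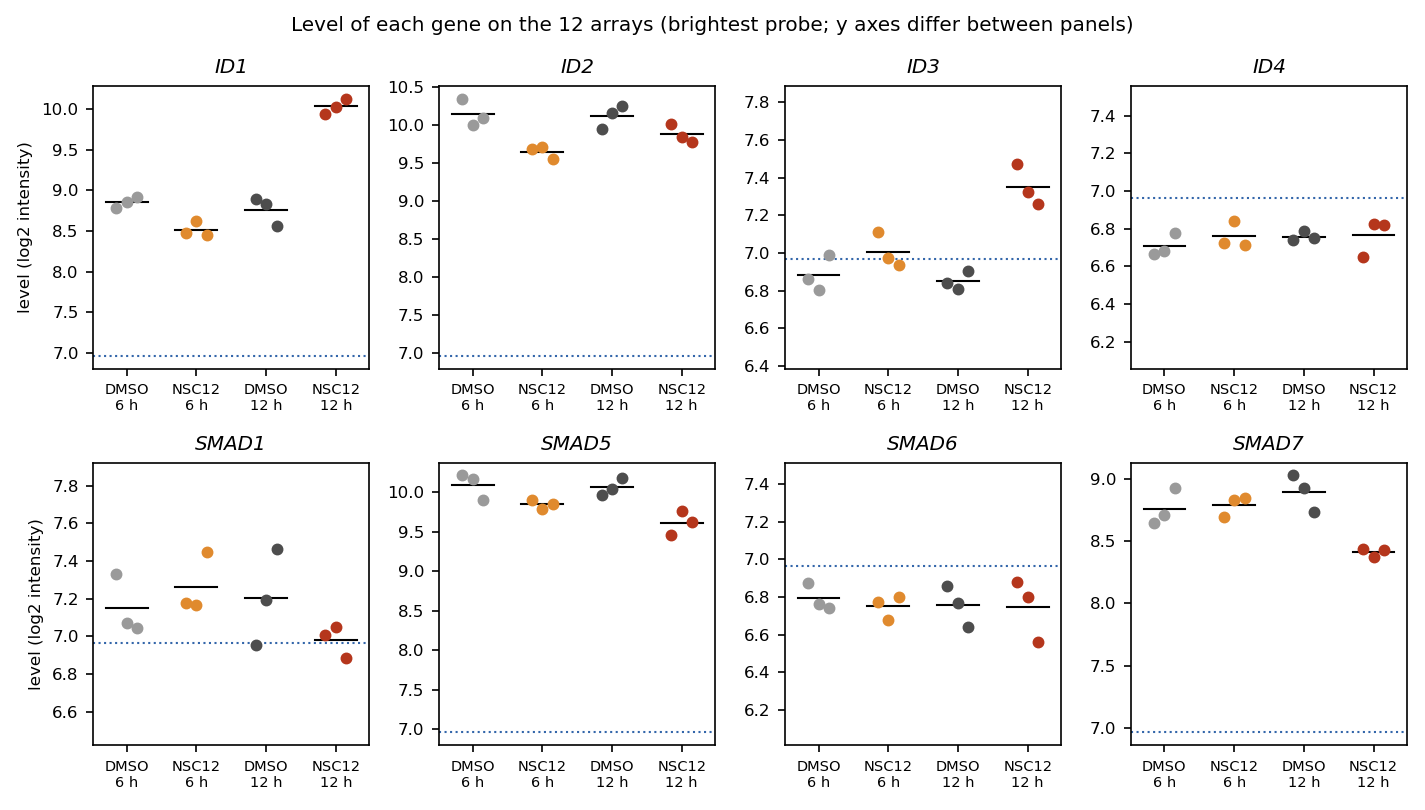
Log2 intensity (y axis) of the brightest probe of each of the 8 genes in the 4 groups (x axis). Points are the 3 arrays of a group, black lines the group means and the dotted line the background of 6.96. ID1 stands highest in NSC12 at 12 h, ID2 lowest in NSC12 at 6 h, SMAD5 and SMAD7 lowest in NSC12 at 12 h, and ID4 and SMAD6 lie under background throughout.

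Of the 7 members other than ID1, ID2 fell at 6 h, and at 12 h ID3 rose while SMAD5 and SMAD7 fell. Calls were made with limma at a Benjamini-Hochberg adjusted p under 0.05 over all 20045 genes. At 6 h this was 0 rises and 1 fall among 7, where 13.1% of all genes were called (5.56% rose and 7.51% fell). At 12 h it was 1 rise and 2 falls among 7, where 28.9% of all genes were called (13.6% rose and 15.2% fell). Both counts lie within about 1 gene of the number those shares would give among 7, so they say nothing particular about these genes. The arrays of the groups did not overlap for 1 of the 7 at 6 h (28% of all genes) and for 3 of the 7 at 12 h (38.2%). The median change of the 7 was 0.03 at 6 h and -0.22 at 12 h, against -0.0015 and -0.0014 over all genes.

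For the difference between the times (change at 12 h minus change at 6 h), 1 of the 7 was called higher (ID3) and 1 lower (SMAD7), where 10.4% of all genes were called (4.66% higher and 5.77% lower). Centring arrays on their medians in place of quantile normalization ended both calls. Over time in DMSO alone, limma called 0 of the 7, where 0.399% of all genes were called. At an unadjusted p under 0.05 there were 0 of the 7, where 2023 of all 20045 genes passed. Over time in NSC12, ID3 rose and SMAD7 fell, where 22.4% of all genes were called.

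ID2, the ID factor with roles in lymphocyte and innate lymphoid development, fell at 6 h. It read 10.35, 10.01 and 10.10 in DMSO and 9.68, 9.71 and 9.56 in NSC12 at 6 h. At 12 h it read 9.95, 10.16 and 10.25 in DMSO and 10.01, 9.85 and 9.78 in NSC12. The treated arrays lay below every control at 6 h, and at 12 h 1 NSC12 array overlapped the controls. The change was -0.50 (SE 0.10, adjusted p = 0.000793) at 6 h, a level 1.41-fold lower, and it was called under all 21 alternatives tried. The second probe (ILMN_2086095) fell as well at 6 h, by 0.61 on the log2 scale.

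At 12 h the change of ID2 was -0.24 (SE 0.10, 95% interval -0.44 to -0.04, adjusted p = 0.0672), which did not pass the test. It passed in 6 of the 21 alternatives, among them without DMSO 12 h replicate 1 (-0.33, adjusted p = 0.0138), without NSC12 12 h replicate 1 (-0.31, adjusted p = 0.0333) and without DMSO 6 h replicate 1 (-0.24, adjusted p = 0.0455). The changes of ID2 at the 2 times differed by 0.26 (95% interval -0.02 to 0.54, adjusted p = 0.282), so a difference between the times was not shown.

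ID3, which is induced with ID1 by BMPs in many cell types, was dim and rose at 12 h. It read 6.84, 6.81 and 6.90 in DMSO and 7.47, 7.32 and 7.26 in NSC12 at 12 h. At 6 h it read 6.86, 6.80 and 6.99 in DMSO and 7.11, 6.97 and 6.93 in NSC12. The NSC12 12 h arrays stood above every other array, and every DMSO 12 h array lay under background. The change at 12 h was 0.50 (SE 0.07, adjusted p = 1.07e-05), called under all 21 alternatives. Against the background level the mean of 7.35 in NSC12 was at least 1.31-fold higher than in DMSO, where the measured mean was 6.85.

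At 6 h the change of ID3 was 0.12 (SE 0.07, 95% interval -0.03 to 0.27, adjusted p = 0.339). The change at 12 h exceeded it by 0.38 (SE 0.10, adjusted p = 0.0195). That difference was called in 15 of 20 alternatives. It missed the threshold with median centring (adjusted p = 0.0572) and when any of 4 arrays was left out, namely replicate 3 of DMSO 6 h, replicate 3 of NSC12 6 h, replicate 2 of DMSO 12 h and replicate 1 of NSC12 12 h (adjusted p from 0.0518 to 0.0643). Within NSC12 the level rose by 0.34 between 6 and 12 h (adjusted p = 0.00117). ID3 has 1 probe on the array.

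ID4, which in several tissues opposes the other ID proteins, lay under background on all 12 arrays, between 6.65 and 6.84. Its changes were 0.05 (95% interval -0.07 to 0.17) at 6 h and 0.0065 (-0.11 to 0.13) at 12 h, and neither passed the test. At this signal a change in ID4 was not detectable.

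**Figure D2:**
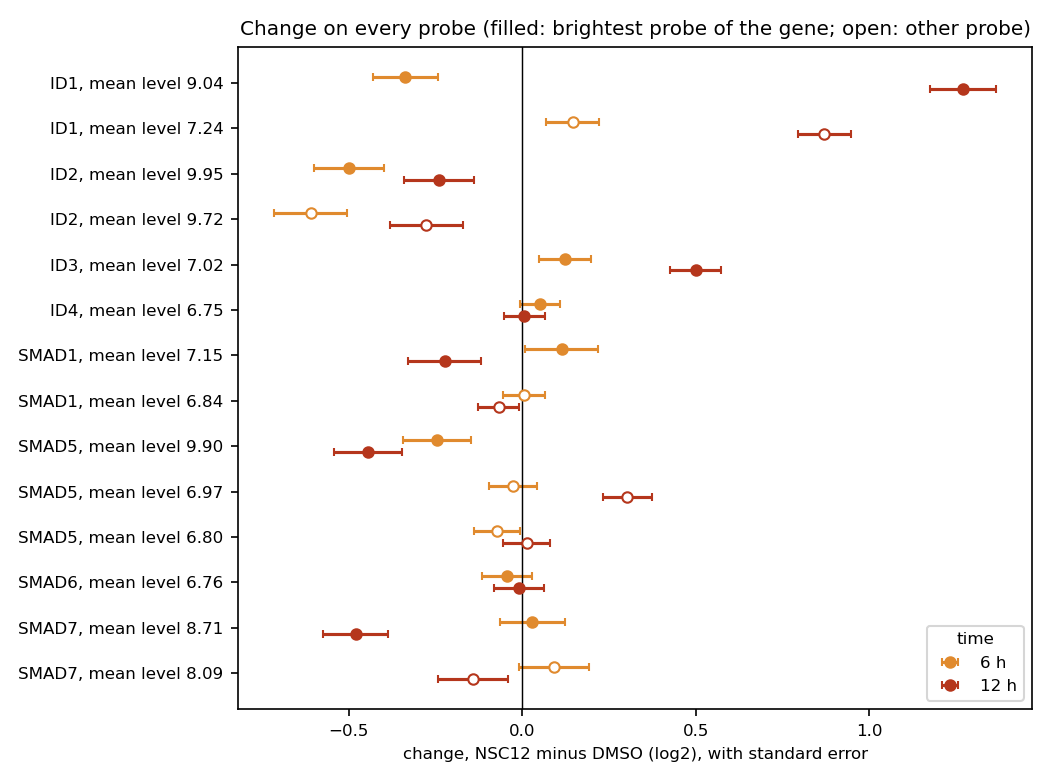
Change from DMSO to NSC12 (log2, x axis) with its standard error on each of the 14 probes (y axis, with the probe's mean level over 12 arrays), at 6 h in orange and 12 h in red. Filled points are the probe that stands for the gene, and open points the others. The probes of ID2 lie together, both probes of ID1 lie above 0 at 12 h, and the probes of SMAD5 and SMAD7 lie apart at 12 h.

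SMAD1, a receptor-regulated SMAD that carries the BMP signal to the nucleus, was near background. It read 7.33, 7.07 and 7.04 in DMSO and 7.18, 7.17 and 7.45 in NSC12 at 6 h. At 12 h it read 6.95, 7.19 and 7.46 in DMSO and 7.01, 7.05 and 6.88 in NSC12. The groups overlapped at both times. The change was 0.11 (95% interval -0.11 to 0.34, adjusted p = 0.603) at 6 h and -0.22 (-0.45 to 0.00031, adjusted p = 0.141) at 12 h. Without DMSO 12 h replicate 1, the lowest of its group, the 12 h change was -0.35 and passed (adjusted p = 0.0129), as it did with median centring (-0.25, adjusted p = 0.0301). Without the same array its changes at 12 h and 6 h differed by -0.46 (adjusted p = 0.0343), against -0.34 (adjusted p = 0.191) with all arrays. Its second probe lay under background in every group.

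SMAD5, a close relative of SMAD1 with the same receptors, was brighter and fell at 12 h. It read 9.97, 10.04 and 10.17 in DMSO and 9.46, 9.76 and 9.62 in NSC12 at 12 h. At 6 h it read 10.21, 10.17 and 9.90 in DMSO and 9.91, 9.79 and 9.84 in NSC12. The treated arrays lay below every control at 12 h, and at 6 h 1 control array reached into their range. The change at 12 h was -0.44 (SE 0.09, adjusted p = 0.000625), a level 1.36-fold lower. At 6 h it was -0.25 (adjusted p = 0.0894), which passed without DMSO 6 h replicate 3, the dimmest array (-0.34, adjusted p = 0.0176). The difference between the times was -0.20 (95% interval -0.47 to 0.07, adjusted p = 0.431).

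The probes of SMAD5 disagreed. A dim probe (ILMN_2371984) read 6.87, 6.95 and 6.91 in DMSO and 7.08, 7.27 and 7.29 in NSC12 at 12 h. It rose by 0.30 (adjusted p = 0.00217 over all probes), at least 1.19-fold against background, where the bright probe fell. The remaining probe, with every group mean under background, changed by 0.01 at 12 h. With the mean of the 3 probes the change at 12 h was -0.04 and was not called (adjusted p = 0.722), so the fall of SMAD5 rests on its bright probe.

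SMAD6, the inhibitory SMAD most directed at BMP receptors, lay under background on all arrays, between 6.56 and 6.88. Its changes were -0.04 (95% interval -0.19 to 0.11) at 6 h and -0.01 (-0.16 to 0.14) at 12 h, and neither passed the test.

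SMAD7, the inhibitory SMAD that brings ubiquitin ligases to BMP and TGF-beta receptors, fell at 12 h. It read 9.03, 8.93 and 8.73 in DMSO and 8.44, 8.38 and 8.43 in NSC12 at 12 h. At 6 h it read 8.65, 8.71 and 8.93 in DMSO and 8.69, 8.83 and 8.84 in NSC12. All 3 arrays of NSC12 at 12 h lay below all others, and at 6 h the groups overlapped. The change was -0.48 (SE 0.09, adjusted p = 0.000217) at 12 h, a level 1.39-fold lower, called under all 21 alternatives. At 6 h it was 0.03 (95% interval -0.16 to 0.22, adjusted p = 0.901).

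The changes of SMAD7 at 12 h and 6 h differed by -0.51 (SE 0.13, adjusted p = 0.0113). The call held in 19 of 20 alternatives, and with median centring the difference was -0.49 (adjusted p = 0.276). Within NSC12 the level fell by 0.37 between 6 and 12 h (adjusted p = 0.00363). The second probe of SMAD7 (ILMN_2203896) changed by -0.14 at 12 h and did not pass (adjusted p = 0.457 over all probes). The fall is thus seen on 1 probe of 2.

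The genes whose levels ran most like ID1 over the 12 arrays, among the 12368 genes searched (above background in at least 1 group, without immunoglobulin genes and genes with no official name), were BATF (Pearson r = 0.97), MCEE (0.96), SPATA7 (0.96), EIF4E2 (0.96) and ZSCAN16 (0.96). BATF is an AP-1 family factor of lymphocytes, MCEE a mitochondrial epimerase of propionate breakdown and EIF4E2 a cap-binding repressor of translation. The mean level of BATF was 8.09, 8.03, 8.05 and 8.62 in the order DMSO 6 h, NSC12 6 h, DMSO 12 h and NSC12 12 h. These correlations describe arrays that share treatment groups, and the points are not independent of the values that chose ID1.

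Most like ID2 were EIF5 (0.94), a translation initiation factor, and ISY1 (0.93), a splicing factor. EIF5 went from 10.13 to 9.39 at 6 h and from 10.17 to 9.70 at 12 h, DMSO to NSC12. Most like SMAD5 were SEL1L (0.97), of the degradation machinery of the endoplasmic reticulum, and FBN2 (0.96), a fibrillin. Most like SMAD7 were TUBB4B (0.97), a beta-tubulin, and SCD5 (0.96), a fatty acid desaturase. Most like SMAD1 were ARHGAP11B (0.88) and KLHDC10 (0.86). Between members, over the 12 arrays, ID1 ran with ID3 (r = 0.79) and against SMAD7 (-0.77), and its r with ID2 was -0.04. These are descriptions over arrays that share groups.

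Other genes of the BMP and TGF-beta pathway were taken from a list of 93, of which 89 were on the array. At 6 h 2 rose (2.25%) and 6 fell (6.74%), where 5.56% and 7.51% of all genes did. At 12 h 5 rose (5.62%) and 19 fell (21.3%), where 13.6% and 15.2% of all genes did. The median change was -0.04 at both times, against -0.0015 and -0.0014 over all genes. For the difference between the times 1 was called higher (1.12%) and 9 lower (10.1%), where 4.66% and 5.77% of all genes were. In DMSO over time 1 rose, where 0.399% of all genes were called. In NSC12 over time 6 rose and 16 fell, 24.7% of the list, where 22.4% of all genes were called. Whether the list stands apart from other genes was not tested.

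Among 17 ligands, 1 rose and 2 fell at 12 h, 17.6% in all against 28.9% of all genes. BMP6, a ligand known to be made by plasma cells, changed by -0.15 at 6 h (adjusted p = 0.236). At 12 h it fell from 9.89 ± 0.05 (SD, n = 3) to 8.95 ± 0.11, a change of -0.94 (SE 0.08, adjusted p = 2.29e-09). GDF11, an activin-like ligand, fell by 0.38 at 6 h and by 0.56 at 12 h, while its second probe changed by 0.02 and 0.01. As the mean of probes the 6 h change was -0.18 and was not called (adjusted p = 0.0791), and the 12 h change was -0.27 (called). GDF15, a stress-induced ligand, rose at 12 h from 6.81 in DMSO, under background, to 7.04 in NSC12 (adjusted p = 0.00983), at least 1.06-fold against background. That call was lost without NSC12 12 h replicate 3 (adjusted p = 0.0532). None of 10 ligand antagonists passed limma's test at 6 h or 12 h, where 13.1% and 28.9% of all genes did. At an unadjusted p under 0.05 there were 0 and 1, where 4745 and 7133 of all 20045 genes passed. Only 5 of the 10 lay above background in at least 1 group.

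Among 14 receptors and co-receptors, 1 rose and 2 fell at 12 h, 21.4% in all against 28.9% of all genes. BAMBI, a decoy receptor that blocks BMP and TGF-beta signalling, rose from 10.17 ± 0.15 to 10.92 ± 0.05 at 6 h (0.75, SE 0.08, adjusted p = 6.9e-07). At 12 h it rose from 10.29 ± 0.06 to 11.23 ± 0.10 (0.94, SE 0.08, adjusted p = 7.06e-09). It was the 1 gene of its role called at 6 h, 7.14% against 13.1% of all genes. ACVR1B, a type I activin receptor, fell by 0.57 at 12 h on its bright probe, while its 3 dim probes did not pass, and as the mean of probes it was not called (adjusted p = 0.134). TGFBR2, the type II TGF-beta receptor, fell by 0.36 at 12 h (adjusted p = 0.00202), and by 0.19 as the mean of its 3 probes.

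Of the other SMADs, SMAD9, the third BMP-regulated SMAD, fell from just above to below background at both times. It went from 7.22 to 6.83 at 6 h (adjusted p = 0.00025), at least 1.20-fold lower against background, and from 7.16 to 6.76 at 12 h (adjusted p = 7.18e-05), at least 1.14-fold lower. Its second probe changed by 0.03 at 6 h and by 0.16 at 12 h, and passed at neither time (adjusted p = 0.898 and 0.081 over all probes). The mean of both probes was called at 6 h but not at 12 h (adjusted p = 0.0825). SMAD4, the shared partner, changed by 0.05 at 6 h and by -0.20 at 12 h (adjusted p = 0.0647). It passed at 12 h in 5 alternatives, among them without DMSO 12 h replicate 3 (adjusted p = 0.0284) and without NSC12 12 h replicate 3 (adjusted p = 0.0223). Of 15 genes that turn over or repress SMADs, 0 rose and 7 (46.7%) fell at 12 h, where 13.6% of all genes rose and 15.2% fell. TGIF2, a corepressor, fell from 10.53 ± 0.06 to 9.93 ± 0.07 (adjusted p = 1.16e-06). LEMD3, an inner nuclear membrane protein that binds SMADs, fell by 0.59 at 12 h, and by 0.63 on its second probe. PPM1A, a SMAD phosphatase, fell by 0.55, with 2 of its 5 probes past the test, and by 0.17 as the mean of probes. At 6 h PPM1A changed by -0.22 (adjusted p = 0.131), which passed without DMSO 6 h replicate 3 (-0.33, adjusted p = 0.00993).

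Of 8 SMAD cofactors, 1 rose (12.5%) and 3 fell (37.5%) at 12 h, where 13.6% of all genes rose and 15.2% fell. CREBBP, a histone acetyltransferase that SMADs recruit, fell from 10.78 ± 0.17 to 9.52 ± 0.06 at 12 h, a change of -1.26 (SE 0.08, adjusted p = 1.14e-10). Its other probe, near background, changed by 0.03, and the mean of both was -0.61 (called). RUNX2, a runt-domain partner of SMADs, rose by 0.49 at 6 h and changed by 0.13 at 12 h (adjusted p = 0.296). The 6 h call was lost with median centring (0.32, adjusted p = 0.392). RUNX3 fell by 0.47 at 12 h, a call also lost with median centring (-0.25, adjusted p = 0.366). The falls of LEMD3 (-0.37) and CREBBP (-0.26) at 6 h were lost in 9 and 10 of 21 alternatives, with adjusted p up to 0.246 and 0.308. For LEMD3 these include leaving out any array of DMSO 6 h, NSC12 6 h replicate 2 or 3, or DMSO 12 h replicate 2. For CREBBP they include leaving out DMSO 6 h replicate 2 or 3, any array of NSC12 6 h, DMSO 12 h replicate 2 or NSC12 12 h replicate 3.

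Of 7 bHLH partners of ID factors, 0 rose and 1 fell at 12 h, 14.3% against 28.9% of all genes called. TCF3, the E protein that ID proteins bind, changed by -0.31 at 6 h (adjusted p = 0.0791) and fell from 10.63 ± 0.27 to 10.07 ± 0.09 at 12 h (-0.56, SE 0.11, adjusted p = 0.000418). The 6 h change passed in 5 alternatives, among them without replicate 1 of DMSO 6 h (-0.40, adjusted p = 0.0331) and without replicate 1 or 3 of DMSO 12 h (adjusted p = 0.0255 and 0.0271). Of 14 other BMP and TGF-beta targets, 2 rose (14.3%) and 3 fell (21.4%) at 12 h, where 13.6% of all genes rose and 15.2% fell. CDKN2B, an inhibitor of cyclin-dependent kinases, fell by 0.49 at 6 h and by 0.77 at 12 h. The other probe above background fell by 0.77 at 12 h as well, but at 6 h changed by -0.24 and did not pass (adjusted p = 0.183 over all probes). As the mean of its 3 probes, 1 of them under background, the changes were -0.25 and -0.47 (both called). KLF10, an early TGF-beta response gene, fell by 0.67 at 12 h on its brightest probe, while its other 2 did not pass and the mean of its probes was -0.24 (called). HEY2, a bHLH repressor, rose by 0.52 at 12 h.

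**Figure D3:**
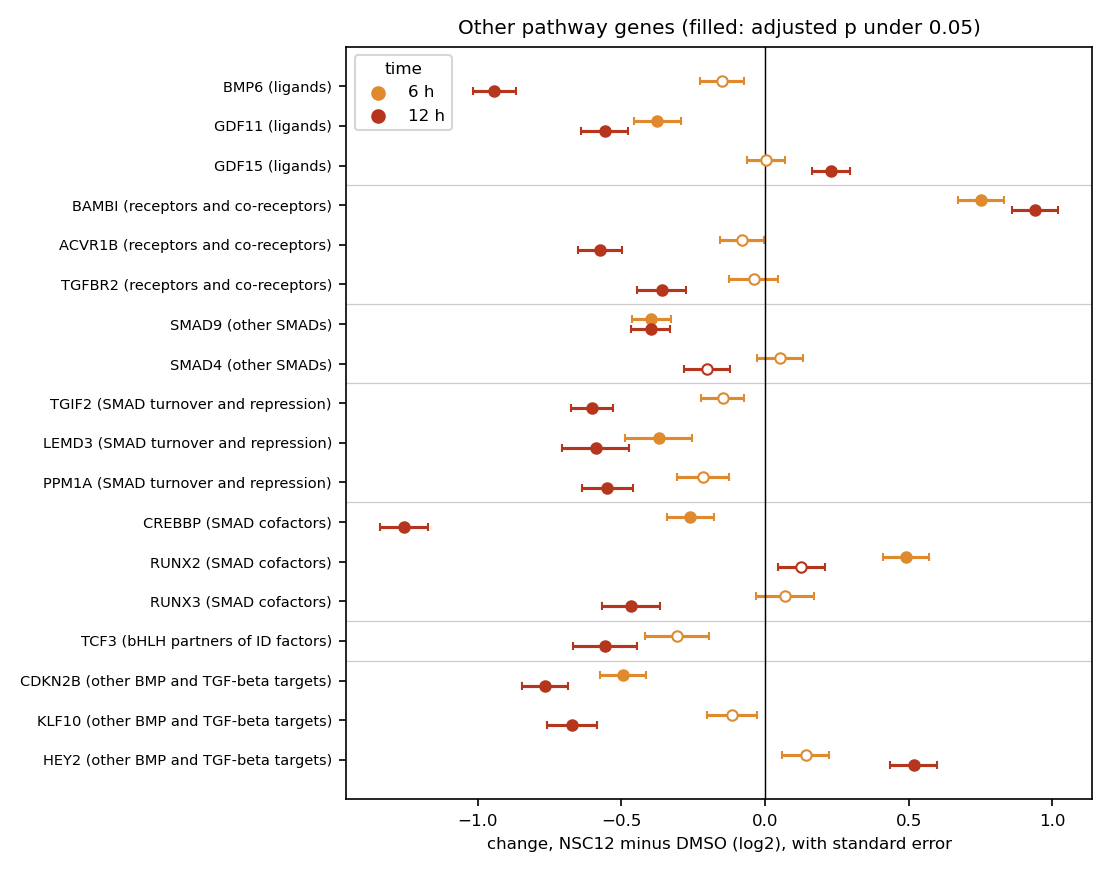
Change from DMSO to NSC12 (log2, x axis) with its standard error for 18 genes of the pathway list by role (y axis), at 6 h in orange and 12 h in red. Filled points passed an adjusted p under 0.05. BAMBI lies highest at both times, CREBBP (-1.26) and BMP6 (-0.94) lowest at 12 h.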

How the data were processed

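The deposited intensities are linear and run from 69.5 to 25534, 1 for each probe on each array. How they were scanned, background corrected or normalized is not given in the sources used here. Biotinylated cRNA was hybridised to Illumina arrays, per the labels. Array means differed (347 to 634), so the deposited intensities were treated as unnormalized with background left in, which understates the changes of dim genes. The number of arrays limits the precision.

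A floor of 16 was set, which no value reached, followed by quantile normalization and log2. The platform annotation gave 1 symbol for 30111 probes, several for 8 and none for 17200, and 30072 were updated through RefSeq (GRCh38.p14), which the promoters and their coordinates also come from. No gene was removed for low signal. The model, in limma 3.58.1 under R 4.3.3, had a mean for each group, and variances were moderated along a trend with intensity. Benjamini-Hochberg adjustment ran over 20045 genes, with a threshold of 0.05. Probes were tested over all 47319. A fold against a group under background uses the background level. Alternatives were other normalizations, filters, probe rules and designs, and leaving out each array. The analysis was tested on simulated data. Figures were drawn with matplotlib 3.10.9.

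Same-numbered arrays did not deviate together (correlations -0.47 to 0.18 over 18 pairs), so replicate numbers were not used to pair arrays. Between arrays of different groups and numbers the correlations ran from -0.19 to 0.44, and what such arrays may share was not tested. Named genes are the 8 members, up to 3 called genes above background with the largest change per pathway role, SMAD4, TCF3, HSPA6, the 5 genes most like ID1 and the 2 most like each other member above background in all 4 groups. The members, lists and tests were chosen with earlier results of these data known.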

Additional observations from a re-analysis of the deposited data

Results flagged for a closer look

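Among the named genes, the changes of 11 at 12 h and at 6 h differed, given here as the change at 12 h minus that at 6 h (log2). This count was favoured by the choice of genes. ID1 was chosen on its change over time, and most named pathway genes for a large called change at 6 h or 12 h. For the difference, 10.4% of all genes and 11.2% of the pathway list were called. On its brightest probe ID1 differed by 1.61, with its treated arrays below every control at 6 h and above every control at 12 h. This difference was not tested. Its dimmer probe changed by 0.15 at 6 h, with a difference between the times of 0.72. For the other 10 genes the difference between the times passed limma's test. ID3 (0.38) and HEY2 (0.38) moved up from 6 to 12 h relative to DMSO. SMAD7 (-0.51), BMP6 (-0.79), ACVR1B (-0.49), TGIF2 (-0.45), CREBBP (-0.996), RUNX2 (-0.36), RUNX3 (-0.54) and KLF10 (-0.56) moved down. TGIF1 (-0.55, adjusted p = 0.00289) and CTDSP1 (-0.41, adjusted p = 0.0464), pathway genes outside the rule for named genes and chosen after their values were seen, also moved down. Of other TGIF1 probes, the brightest differed by -0.26 (adjusted p = 0.245 over all probes) and the next by -0.35 (adjusted p = 0.0484). The rest, with mean levels under background, did not pass. The second probe of CTDSP1 differed by 0.06, and its bright probe did not pass over all probes (adjusted p = 0.0894). With median centring the difference was no longer called for ID3 (0.36), SMAD7 (-0.49), BMP6 (-0.76), ACVR1B (-0.48), HEY2 (0.38), TGIF2 (-0.36), RUNX2 (-0.22) or RUNX3 (-0.25), and it was still called for CREBBP and KLF10. For the first 5 of these the size moved by under 0.05 (log2). As the mean of probes it was lost for ACVR1B (-0.13), KLF10 (-0.20), RUNX2 (-0.33) and RUNX3 (-0.30). The difference of RUNX2 was called in 7 of 20 alternatives. It was lost without any single array but NSC12 6 h replicate 2 and DMSO 12 h replicate 3. That of HEY2 was called in 8 of 20. It was lost without replicate 1 or 2 of any group, except DMSO 12 h replicate 1, and without DMSO 12 h replicate 3. That of RUNX3 was lost without replicate 1 of DMSO 6 h, replicate 1 or 3 of NSC12 6 h, or replicate 2 of NSC12 12 h.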

How the results depend on the processing

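When 1 array was left out, counts of the 7 members other than ID1 ranged from 1 to 2 at 6 h and from 3 to 5 at 12 h. For the difference between the times they ranged from 1 to 3. With all arrays the counts were 1, 3 and 2. Without 1 array, from 1981 to 2896 of all 20045 genes were called at 6 h and from 5109 to 5872 at 12 h. For the difference it was from 1541 to 2160. The count of 2 members at 6 h came without DMSO 6 h replicate 3, where 2205 of all genes were called. The counts of 5 at 12 h and 3 for the difference came without DMSO 12 h replicate 1, where 5532 and 2082 of all genes were called. With median centring 0 of the 7 were called for the difference. Of the pathway genes, 5 were called at 6 h as the mean of probes (against 8), where 2436 of all genes were (against 2619). For the difference 2 were called with median centring, 4 as the mean of probes and from 6 to 11 without 1 array (against 10). Over all genes the mean of probes called 1842 for the difference (against 2091). Median centring also called fewer of all genes, 1469 against 2619 at 6 h (18.8% of them higher, against 42.5%) and 364 against 2091 for the difference (76.1% higher, against 44.7%). At 12 h 36.3% of calls were higher, against 47.3%. Over time in DMSO it called 14, and a fit of only the groups compared 15, against 80. The cause was not tested. A fit with the replicate number as a replicate block called 1, 3 and 2 members, and 7, 24 and 7 pathway genes. It called 2505, 5696 and 1992 of all genes. Only 2 of 12 arrays correlated best with their own number. Of 656 changes of members by setting, 636 kept their direction or stayed uncalled, 10 newly passed and 7 no longer passed. The 3 that moved were ID1 as the mean of probes, at -0.10, 1.07 and 1.17 for 6 h, 12 h and the difference. Among uncalled changes 25 had another sign. ID4, SMAD6 and, in DMSO, ID3 lay under background, which limits what could be seen.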

Other observations

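Neighbours on the chromosome were taken for ID1, ID2, ID3, SMAD5 and SMAD7, as the nearest gene on either side above background in at least 1 group. This comparison was chosen after values were seen. Distances ran from 0.193 kb (ID2-AS1) to 1430 kb (KLHL3). HM13, before ID1, changed by 0.34 at 6 h (adjusted p = 0.145) and by -0.30 at 12 h (adjusted p = 0.13), a difference between the times of -0.64 (adjusted p = 0.0459), and BCL2L1, after ID1, by 0.06 (adjusted p = 0.788) and by -0.23 (adjusted p = 0.112). E2F2, a cell cycle factor before ID3, fell by 0.37 at 6 h (adjusted p = 0.000854) and by 1.17 at 12 h (adjusted p = 4.25e-11), where ID3 rose. KIDINS220, after ID2, changed by -0.04 at 6 h and fell by 0.56 at 12 h (adjusted p = 8.21e-06). VTRNA2-1, a noncoding RNA before SMAD5, fell by 1.101 at 6 h (adjusted p = 9.3e-10) and by 1.03 at 12 h (adjusted p = 1.12e-09). CTIF, before SMAD7, fell by 0.37 at 12 h (adjusted p = 0.00314), and DYM, after it, changed by 0.13 (adjusted p = 0.267). ID2-AS1, before ID2, changed by -0.05 at 6 h and by -0.11 at 12 h (adjusted p = 0.756 and 0.263). RPL11, after ID3, changed by -0.06 and 0.03 at these times (adjusted p = 0.641 and 0.80). KLHL3, after SMAD5, changed by -0.13 and -0.19 (adjusted p = 0.361 and 0.093).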
